A study of Mus musculus with 24 samples.

Results

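Potassium, sodium and calcium channel genes were read from 24 Affymetrix arrays of mouse cerebellum, medulloblastoma and medulloblastoma cell lines. A gene was taken where its symbol in the array annotation begins with Kcn and a letter, with Scn, a number and a or b, or with Cacn and a, b or g. This gave 94 of the 12394 genes measured: 62 potassium, 9 sodium and 23 calcium channel genes, held by 137 probe sets. Each gene is represented by its probe set with the highest mean over the 24 arrays. A level is log2(intensity + 16), a difference is a difference of such levels, and levels of different genes are not compared, since each probe set has its own brightness.

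The normal tissue was cerebellum of wild type mice, 2 arrays from postnatal day 6 (P6) and 1 from an adult. Label and title disagree on the age of P6 replicate 2, and the title was followed. Primary medulloblastoma (MB) gave 3 arrays, labelled Ptch1 mutant and adult. SMB21, SMB55 and SMB56 are lines grown as neurospheres, without added growth factors, from medulloblastomas that arose spontaneously in Ptch+/- mice, and all of their arrays carry the labels Ptch1 mutant and adult. Parental cells gave 4 arrays of SMB21 and 2 each of SMB55 and SMB56. Growth factor (GF) cells, with 1 array per line, are parental cells kept for over 3 weeks in medium with EGF at 20 ng/mL, bFGF at 20 ng/mL and heparin at 0.2%. RAS transformed cells gave 3 arrays of SMB21 and 2 each of SMB55 and SMB56, and the labels name neither the RAS gene nor the vector. Replicates are called biological, but nothing says which animals or cultures they came from. The p-values thus measure the spread between these arrays and, where tissues were fitted with parental cells, also between the 3 line means.

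Voltage-gated channels open when the membrane potential changes and carry the action potential: sodium channels start it, potassium channels end it, and calcium channels turn it into calcium entry and transmitter release. Pore-forming subunits are joined by auxiliary subunits that set their trafficking and gating, and leak and inward rectifier potassium channels hold the resting potential. In the cerebellum, granule neuron precursors, from which Hedgehog-type medulloblastoma arises, divide in the first weeks after birth and acquire these channels as they mature, while Purkinje cells and glia carry channel sets of their own.

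The promoters of 4 genes are shown because these genes had some of the largest differences in the RAS or GF cultures described below and hold a match to the sequence bound by AP-1, a transcription factor downstream of growth factor and RAS signalling, or to the CACGTG E-box. The windows run from 250 bases before to 50 bases after an annotated transcript start, are taken from RefSeq on build GRCm38.p6, and are printed 5′ to 3′ on the strand of the gene with the match in capitals. Kcnn4 lies at chr7:24370013-24370312 (plus strand), Kcnk2 at chr1:189344143-189344442, Cacng5 at chr11:107915006-107915305 and Kcnip3 at chr2:127522045-127522344 (all 3 on the minus strand).
Kcnn4: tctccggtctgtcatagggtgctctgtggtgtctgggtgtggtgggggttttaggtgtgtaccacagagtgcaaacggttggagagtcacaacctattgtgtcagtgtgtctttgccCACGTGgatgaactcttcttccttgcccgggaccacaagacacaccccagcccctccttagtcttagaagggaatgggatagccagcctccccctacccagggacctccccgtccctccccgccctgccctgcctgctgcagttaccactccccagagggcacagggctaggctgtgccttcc
Kcnk2: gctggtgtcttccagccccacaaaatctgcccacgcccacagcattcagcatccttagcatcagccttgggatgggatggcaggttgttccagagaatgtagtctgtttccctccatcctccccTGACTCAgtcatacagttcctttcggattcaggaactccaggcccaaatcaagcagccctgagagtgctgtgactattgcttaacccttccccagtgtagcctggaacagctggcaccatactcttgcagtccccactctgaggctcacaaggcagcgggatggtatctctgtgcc
Cacng5: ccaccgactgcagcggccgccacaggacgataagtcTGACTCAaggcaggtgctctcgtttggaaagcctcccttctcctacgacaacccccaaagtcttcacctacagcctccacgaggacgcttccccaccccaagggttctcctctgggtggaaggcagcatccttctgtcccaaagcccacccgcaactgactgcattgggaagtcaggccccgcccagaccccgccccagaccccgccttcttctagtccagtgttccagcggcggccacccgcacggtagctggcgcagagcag
Kcnip3: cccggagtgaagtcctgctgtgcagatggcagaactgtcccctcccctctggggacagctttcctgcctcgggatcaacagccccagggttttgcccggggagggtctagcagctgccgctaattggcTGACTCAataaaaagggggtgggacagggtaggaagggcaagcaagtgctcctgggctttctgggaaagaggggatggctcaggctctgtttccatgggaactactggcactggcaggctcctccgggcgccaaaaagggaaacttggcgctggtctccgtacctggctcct
Counted from the start, the match begins at base -133 in Kcnn4, -126 in Kcnk2, -214 in Cacng5 and -122 in Kcnip3. It lies in 1 of 4 windows of Kcnk2, 1 of 2 of Cacng5 and 1 of 3 of Kcnip3, and Kcnn4 has 1 window. Both strands were searched. Of the 94 genes, 75 have a window in the table, 103 windows in all. TGANTCA was found in 5 of these 103 windows, of 5 genes (Cacng5, Kcne3, Kcnip3, Kcnip4 and Kcnk2), and in 7.81% of all 32851 windows. Its TGACTCA form was found in 3 of the 103, of 3 genes, and in 5.2% of all windows. CACGTG was found in 6 of the 103, of 5 genes (Kcnab1, Kcne4, Kcnj2, Kcnk5 and Kcnn4), and in 7.15% of all windows. The motifs and the 4 genes were chosen after their values were seen, and a match describes these letters only.

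Over all genes the median level was 8.36. The probe sets that represent 57 of the 94 channel genes (60.6%, against 32.9% of all genes) stayed below it in every array. Of these genes, Kcnc4 and Kcnj9 had another probe set that passed it, at up to 9.841 and 8.525. This describes the brightness of probe sets and not the amount of RNA. The probe sets that represent the other 37 genes reached it in at least 1 array, and 0 did in all. The number of channel genes at or above it was 20 and 19 in the P6 cerebella, 27 in the adult cerebellum, 20, 16 and 17 in the tumors, 8 to 12 in parental SMB arrays and 10 in each GF array. RAS arrays had 2 to 4 in SMB21, 9 and 11 in SMB55 and 10 and 12 in SMB56. The adult cerebellum thus had the most and RAS transformed SMB21 the fewest. How many of all genes lay at or above the median in each array was not counted. No value lies at 0: the lowest value is a level of 4.70, and differences between levels near it are compressed.

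**Figure D1:**
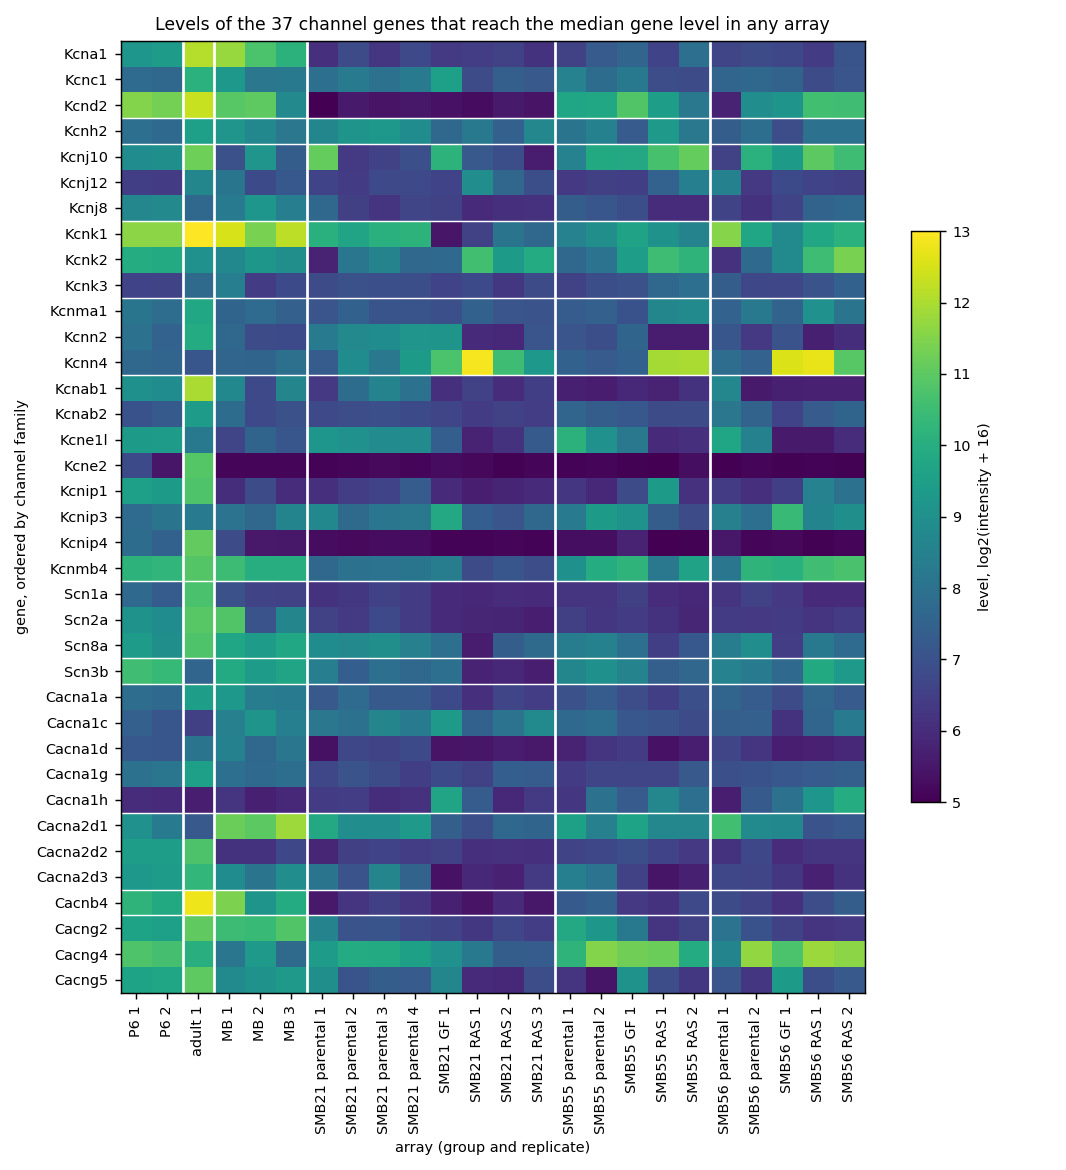
Levels, as log2(intensity + 16) on the colour scale, of the 37 channel genes that reach the median gene level of 8.36 in any array, with 1 column per array and 1 row per gene; white lines part tissues and SMB lines, and channel families. Cells are brightest in the adult cerebellum, where 27 channel genes reach that level, and Kcnd2 is dark in all SMB21 arrays.

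The arrays hold mixed cells, so fewer cells of a type and less RNA per cell cannot be told apart. The summed intensity of 11 Purkinje cell markers was 43876 to 44266 in P6 cerebella, 129693 in the adult, 2188 to 3201 in tumors and 1354 to 6362 in parental SMB cells. That of 10 mature granule neuron markers was 8476 to 9590, 46534, 8163 to 29397 and 2265 to 4541, and that of 13 microglial markers 6545 to 8592, 19763, 15813 to 25941 and 508 to 644. Granule neuron precursor markers (11) summed to 33190 to 35894 in P6 cerebella, 50890 to 59964 in tumors, 33360 to 44718 in parental and 19975 to 29136 in RAS transformed SMB cells. Within groups, SMB56 parental replicates 1 and 2 were the least alike (r = 0.944 over all genes), and SMB21 parental replicate 1 stood apart from the other SMB21 parental arrays in several genes given below.

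In the adult cerebellum Kcne2, Kcnip4 and Scn1a lay furthest above the P6 level and Scn3b furthest below it. With 1 adult array there is no test, and a gene was called where the adult level lay at least 1 unit beyond both P6 arrays. By this rule 24 of 94 channel genes (25.5%) were higher, against 8.39% of all genes, and 4 (4.26%) were lower, against 7.82%. The median difference was 0.22 over the channel genes and 0.03 over all genes, so most channel genes differed little. The 24 included 15 of 62 potassium, 3 of 9 sodium and 6 of 23 calcium channel genes.

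Among pore-forming subunits, Kcna1, an axonal delayed rectifier, stood at 12.10 in the adult against 9.20 and 9.39 at P6. Kcnc1, which lets neurons fire fast, stood at 10.10 against 7.79 and 7.71. The sodium channel gene Scn1a, which fast-spiking interneurons and Purkinje cells use, stood at 10.70 against 7.74 and 7.33. In all 3 genes the adult level was more than 2 units above both P6 arrays, and the other sodium pores called higher, Scn2a and Scn8a, differed by 1.94 and 1.60. Kcnj10, the inward rectifier of astrocytes and Bergmann glia, stood at 11.22 against 8.89 and 8.97. The small-conductance calcium-activated channel Kcnn2 differed by 2.19 and the large-conductance channel Kcnma1 by 1.78. The P/Q-type calcium channel Cacna1a and the T-type channel Cacna1g differed by 1.66 and 1.48.

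Among auxiliary subunits, Kcne2, a KCNE subunit known from choroid plexus epithelium, stood at 10.88 in the adult, against 6.79 and 5.48 at P6 and between 5.00 and 5.30 in all tumors and cultures. Kcnip4, a calcium-binding subunit of A-type potassium channels, stood at 11.08 against 7.82 and 7.50, and Cacnb4, the beta subunit of cerebellar calcium channels, at 12.80 against 10.21 and 9.86. Kcnab1 and Kcnab2, the beta subunits of Kcna channels, differed by 3.02 and 2.28. Of 15 auxiliary potassium channel genes, 5 were called higher and 1 lower.

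The 4 genes that were lower in the adult were Scn3b, Cacna2d1, Kcne1l and Kcnj8. Scn3b, a sodium channel beta subunit known from embryonic and early postnatal brain, stood at 7.61 against 10.54 and 10.37. Cacna2d1, an alpha2delta subunit, stood at 7.23 against 9.05 and 8.34. Kcne1l, a KCNE subunit, and Kcnj8, the pore of ATP-sensitive channels in vascular mural cells, differed by -1.16 and -1.06. The calls of Cacna2d1 and Kcnj8 were lost with a pseudocount of 64 (-1.23 and -0.91), and that of Cacna2d1 also with the mean of its probe sets (-0.84). Beside this, 6 of 10 mature granule neuron markers and 8 of 11 Purkinje cell markers were called higher in the adult and 12 of 13 proliferation genes lower. Their part in the channel differences was not tested.

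**Figure D2:**
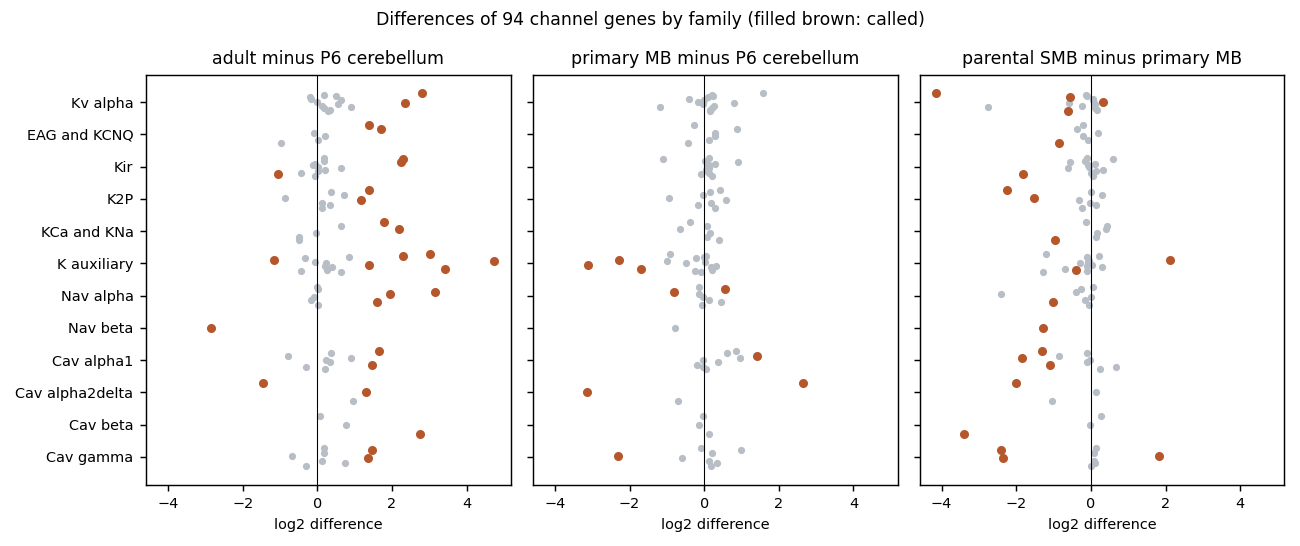
Log2 differences of the 94 channel genes, 1 point per gene, by channel family, for adult minus P6 cerebellum (1 against 2 arrays, no test), primary MB minus P6 cerebellum and parental SMB minus primary MB (limma); brown points are called. Most brown points lie right of 0 in the adult panel and left of 0 in the panel of parental SMB cells, where Kcna1 lies lowest at -4.15.

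Between primary tumors and the P6 cerebellum Cacna2d2 and Kcnip1 had the largest falls and Cacna2d1 the largest rise. In limma's fit, with p-values adjusted over all genes, 3 of 94 channel genes rose (4.3% of all genes did) and 6 fell (6.68% of all genes did), shares close to those of all genes. The median difference was 0.07, against 0.05 over all genes. Of 62 potassium channel genes 0 rose and 3 fell, and these 3 were all among the 15 auxiliary ones. With each array centred on its median, which shifts all genes by 0.17 in this comparison, 7 channel genes rose and 5 fell. Rises and falls of all genes were not counted separately with centred arrays, here or below, so these counts have no share beside them. Counts from fits that left out an array or a line have none either. Their changes are therefore not shown to be particular to channel genes. The count was 4 without P6 replicate 1, 5 without P6 replicate 2 and 5 without tumor 3.

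The alpha2delta genes, whose products raise the number of calcium channels at the cell surface, moved in opposite directions. Cacna2d1 stood at 11.20, 10.98 and 11.83 in the tumors, against 9.05 and 8.34 at P6 and 7.23 in the adult. All 3 tumors lay above all cerebella, and the difference from P6 was 2.65 (SE 0.33, 6.26-fold, limma adjusted p = 0.00418). Cacna2d2, which is known for its role in Purkinje cells, stood at 6.18, 6.16 and 6.73 in the tumors, against 9.47 and 9.50 at P6 and 10.78 in the adult. Here all 3 tumors lay below all cerebella, and the difference was -3.13 (SE 0.20, 8.74-fold lower, adjusted p = 0.000175). The other probe sets of Cacna2d2, at most 5.59 in any array, differed by 0.01 and 0.07, while the other probe set of Cacna2d1 rose by 1.58. The third gene, Cacna2d3, differed by -0.71 and was not called.

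The 3 potassium channel genes that fell were Kcnip1, Kcne1l and Kcnip4. Kcnip1, a calcium-binding partner of Kcnd channels, stood at 6.04, 6.84 and 6.03 in the tumors, against 9.51 and 9.34 at P6 and 10.80 in the adult, and fell by 3.12 (SE 0.28, adjusted p = 0.000834). Kcne1l stood at 6.66, 7.57 and 7.13 against 9.37 and 9.41, and fell by 2.27 (SE 0.28, adjusted p = 0.00385). In both genes the tumors lay below all 3 cerebella. Kcnd2, the A-type pore that Kcnip proteins bind, stood at 10.92, 11.03 and 8.78 against 11.52 and 11.32, with tumor 3 far below the others, and was not called (-1.17, SE 1.24). The delayed rectifier Kcna1 was higher in all 3 tumors than at P6 and was called with centred arrays (1.75, adjusted p = 0.0281) but not otherwise (1.58, SE 0.43, adjusted p = 0.0609), save without tumor 1 or 3 (0.0415 and 0.0306), with another variance prior (0.0487) or with lines as a random block (0.0425). For Kcnip1 1 of the other 3 probe sets fell by 1.75 and the other 2, both dim, differed by -0.06 and 0.22. The calls of Cacna2d1, Cacna2d2, Kcnip1 and Kcne1l held in all 16 fits that left out an array or a line. Fits without a parental SMB array or line kept every array of this comparison and changed the estimate of the spread only.

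Further calls were each lost in several of the fits that left out an array or a line. Cacng4, an auxiliary protein of AMPA receptors named for its likeness to a calcium channel subunit, fell by 2.32 (SE 0.49, adjusted p = 0.0294). It stood at 8.15, 9.29 and 7.77 in the tumors and at 10.81 and 10.63 at P6, and its call was lost without either P6 array (0.174 and 0.172), tumor 1 or 3 (0.0705 and 0.0737), SMB55 parental replicate 1 (0.0623) or SMB56 parental replicate 1 or 2 (0.0679 and 0.0928), which share its fit, and with lines as a random block (0.129). Cacna1c, the L-type calcium channel pore, rose by 1.41 (SE 0.30, adjusted p = 0.0301), from 7.44 and 7.14 to 8.50, 9.14 and 8.46, and lost its call without P6 replicate 1 or 2 (0.124 and 0.223) or tumor 2 or 3 (0.0519 and 0.0564).

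Kcnip4 fell by 1.68 (SE 0.39, adjusted p = 0.0398), from 7.82 and 7.50 to 6.86, 5.56 and 5.50. It lost its call without P6 replicate 1 or 2 (0.218 and 0.179), tumor 2 or 3 (0.0825 and 0.0986), line SMB21, SMB55 or SMB56 (0.0509, 0.0553 and 0.0631) or SMB56 parental replicate 2 (0.0525). Scn1a fell by 0.81 (SE 0.17, adjusted p = 0.0315) and lost its call without P6 replicate 1 or 2 (0.2 and 0.0702), tumor 2 or 3 (0.0695 and 0.087) or line SMB56 (0.0506), with centred arrays (0.0556) and with the 3 cerebella as 1 group (0.166). Scn11a rose by 0.56 at levels of at most 6.38 in all arrays, and lost its call without P6 replicate 1 or 2 (0.155 and 0.191) or tumor 1 or 3 (0.0561 and 0.0542). For Kcnip4 and Scn1a, tumors lay below both P6 arrays. Of 11 Purkinje cell markers, 7 also fell in the tumors and 0 rose. Falls were also found in 9 of 12 endothelial and pericyte, 6 of 12 astrocyte and Bergmann glia and 4 of 11 oligodendrocyte markers, while 9 of 13 microglial markers rose. In these lists the astrocyte marker Slc1a2 rose and the microglial marker P2ry12 fell. Their part in the channel differences was not tested.

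**Figure D3:**
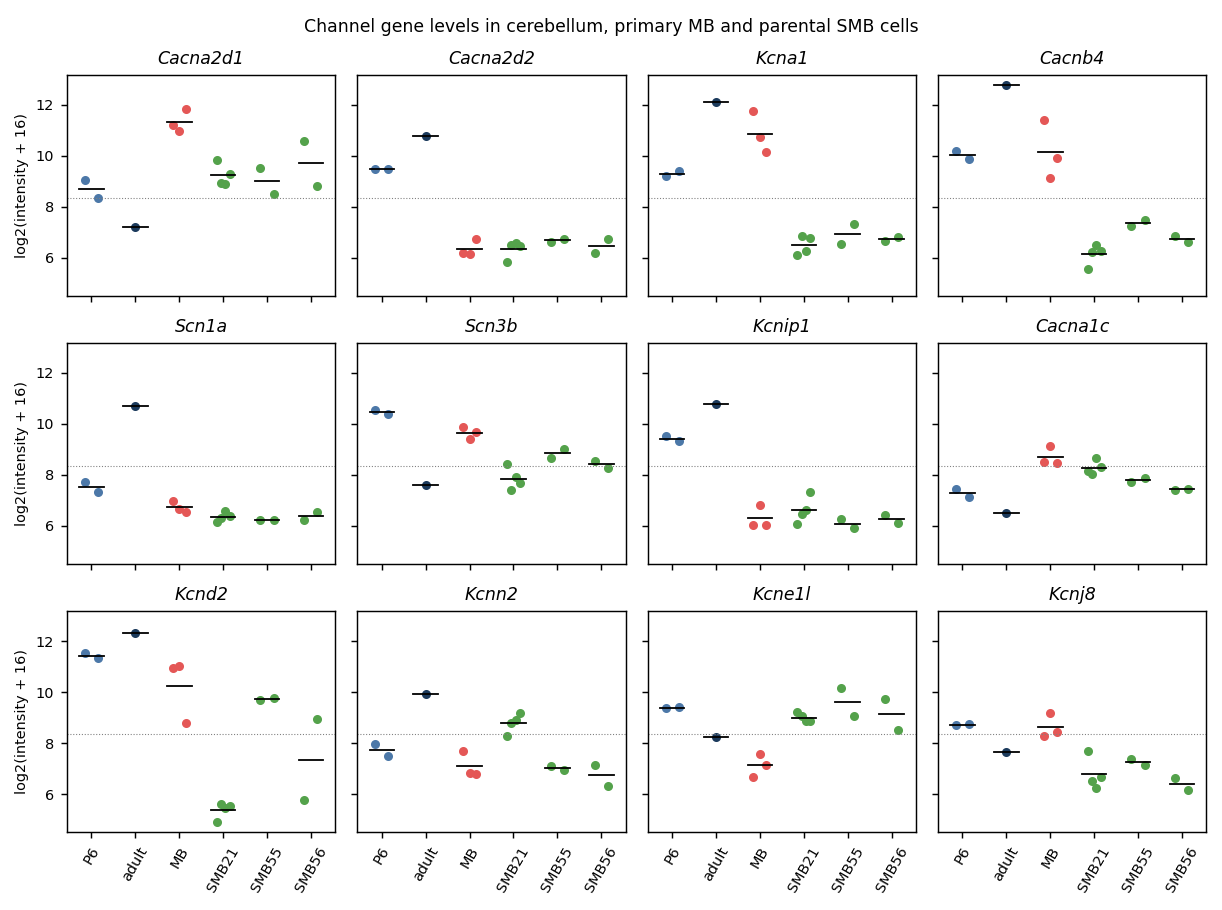
Levels of 12 channel genes in each array (points, log2(intensity + 16)) of P6 and adult cerebellum, primary MB and parental SMB cells of each line; bars are group means and the dotted line is the median level of all genes, 8.36. Cacna2d1 is highest in the 3 tumors, Kcna1 and Cacnb4 are low in every SMB line, and Kcnd2 is low in all SMB21 arrays.

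Against the adult cerebellum, which shares the tumors with the comparison above and is 1 array, tumors had fewer bright channel genes. All 3 tumors lay at least 1 unit below the adult array in 17 channel genes (18.1%; 10.2% of all genes) and above it in 3 (3.19%; 8.29% of all genes). Kcne2 (-5.75), Kcnip4 (-5.10), Kcnip1 (-4.49), Cacna2d2 (-4.42), Scn1a (-3.97), Kcnab1 (-3.95) and Kcnj10 (-3.39) had the largest negative differences. Kcnj10 stood at 6.97, 9.16 and 7.37 in the tumors, with tumor 2 at the P6 level. Cacna2d1 (4.11), Cacna1c (2.19) and Scn3b (2.05) were higher in all 3 tumors. Scn3b, at 9.89, 9.42 and 9.68 in the tumors, thus lay nearer the P6 than the adult level. Scn3b did not pass the rule with the mean of its probe sets (1.13). Kcna1, Kcnc1 and Cacna1a passed it without tumor 1 (-1.67, -1.89 and -1.11), which stood at 11.76, 9.26 and 9.27 in these genes, and Cacng4 passed it without tumor 2 (-2.09). Beside this, 10 of 11 Purkinje cell, 9 of 12 astrocyte and Bergmann glia and 7 of 11 oligodendrocyte markers were lower in the tumors and 13 of 13 proliferation genes higher. The oligodendrocyte lineage markers Olig2 and Pdgfra were higher in the tumors. Astrocyte and Bergmann glia markers summed to 106708 in the adult and 7756 to 8840 in the tumors. Their part in the channel differences was not tested.

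Between parental SMB cells and primary tumors Kcna1 and Cacnb4 had the largest falls and Kcne1l the largest rise. With 1 mean per line, 18 of 94 channel genes fell (19.1%; 8.19% of all genes) and 3 rose (3.19%; 12.4% of all genes), with a median difference of -0.10 against 0.03 over all genes. The falls were of 9 potassium, 2 sodium and 7 calcium channel genes. With centred arrays, which shift all genes by -0.21, 24 fell and 2 rose. The count of 21 became 12 without tumor 1 and 13 without line SMB56.

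Kcna1 had the largest difference. It stood at 11.76, 10.72 and 10.13 in the tumors and at 6.09 to 7.31 in the 8 parental arrays, and fell by 4.15 (SE 0.38, 17.7-fold lower, limma adjusted p = 0.00129). Cacnb4 stood at 11.42, 9.15 and 9.91 in the tumors and at 5.56 to 7.50 in parental arrays, and fell by 3.41 (SE 0.58, adjusted p = 0.0099). In both genes each parental array lay below each tumor and below each cerebellum. Cacng5, another AMPA receptor partner, fell by 2.34 (SE 0.42, adjusted p = 0.0118), and SMB21 parental replicate 1, at 9.00, lay among the tumors, which stood at 8.80, 9.11 and 9.34, while the other 7 parental arrays lay at 5.46 to 7.37. Between the means of all tumor and all parental arrays, the other probe set of Cacng5, at most 6.165 in any array, differed by -0.103. That of Cacnb4 differed by -2.505.

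Pore-forming calcium channel genes of 3 types fell as well. Cacna1d, an L-type pore, stood at 8.52, 7.70 and 8.14 in the tumors against 5.37 to 6.81 in parental arrays (-1.85, SE 0.22, adjusted p = 0.00313). The T-type pore Cacna1g fell by 1.09 (SE 0.13) and Cacna1a by 1.31 (SE 0.26). Among sodium channel genes, Scn8a, the pore of the axon initial segment, fell by 1.01 (SE 0.16) and Scn3b by 1.29 (SE 0.25), with all parental arrays below all tumors in both. The calls of Scn8a, Scn3b, Cacna1a and Cacna1g were lost where the 3 cerebella formed 1 group of the fit (adjusted p = 0.166, 0.301, 0.118 and 0.11), at the same differences. Scn2a, at 10.83, 7.05 and 8.63 in the tumors and 6.27 to 6.76 in parental arrays, was lower but not called (adjusted p = 0.0842). Other probe sets were compared between the means of all tumor and all parental arrays. Those of Cacna1d, Scn8a and Scn3b, below 8.36 in every array, differed by -0.236, -0.049 and -0.095. Those of Cacna1a and Scn2a differed by -1.127 and -1.406.

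Among potassium channels outside the Kcna family, Kcnj8 fell by 1.82 (SE 0.29, adjusted p = 0.00824), from 8.28, 9.20 and 8.42 to between 6.16 and 7.70. The leak channel Kcnk2, which responds to stretch and lipids, fell by 1.52 (SE 0.25, adjusted p = 0.00831), with a lost call where the 8 parental arrays entered singly and the line was a random block (0.0957). Cacna2d1, which was highest in the tumors, fell by 2.02 (SE 0.30, adjusted p = 0.00622), with parental arrays at 8.49 to 10.58, below all tumors. Kcne1l went the other way: it stood at 6.66 to 7.57 in tumors and at 8.52 to 10.15 in parental arrays, a rise of 2.12 (SE 0.25, 4.34-fold, adjusted p = 0.00317), and its parental levels surround those of P6 cerebellum. Kcna1, Cacnb4, Cacng5, Cacna1d, Cacna1g, Cacna1a, Scn8a, Scn3b, Kcnj8, Kcnk2, Cacna2d1 and Kcne1l held their calls in all 16 fits that left out an array or a line. Fits without a P6 array kept every array of this comparison and changed the estimate of the spread only.

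The calls of the other genes were each lost in several of the 16 fits that left out an array or a line. Cacng2, which carries AMPA receptors to synapses and is known as stargazin, fell by 2.42 (SE 0.54, adjusted p = 0.0225), to parental levels of 6.77 to 9.82. It lost its call without tumor 1 or 3 (0.058 and 0.0714) or line SMB56 (0.0689). The leak channel Kcnk1 fell by 2.25 (SE 0.50, adjusted p = 0.0219) and lost its call without tumor 1 or 3 (0.0652 and 0.0687) or SMB56 parental replicate 2 (0.0962). Cacng4 rose by 1.82 (SE 0.44, adjusted p = 0.0289), and SMB56 parental arrays differed widely, at 8.60 and 11.69. Its call was lost without P6 replicate 1 or 2 (0.0593 each), tumor 1 or 3 (0.0823 and 0.0795), line SMB55 or SMB56 (0.0632 and 0.0719) or SMB56 parental replicate 2 (1.31, 0.193), and with lines as a random block (0.0775). The remaining 6 called genes, Kcnu1, Kcnq5, Kcns2, Kcna4, Kcnmb1 and Kcna7, moved by less than 1 unit at levels below 8.36, and each lost its call in 5 to 12 of the 16 fits, at adjusted p up to 0.121, among them those without tumor 1 and without line SMB56.

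Beside these falls, all 13 microglial markers and 7 of 11 young neuron markers fell in parental SMB cells, as did 2 of 10 mature granule neuron and 6 of 12 endothelial and pericyte markers. Young neuron markers summed to 49008 to 57302 in tumors and to 8363 to 23399 in parental arrays. Their part in the falls of channel genes was not tested. Of 40 measured genes for other channels, pumps and partners of channels, 7 fell and 2 rose. Ank3, which anchors sodium channels at the initial segment, fell by 2.18 (SE 0.25, adjusted p = 0.00278). Fgf14, a cytoplasmic partner of sodium channels, fell by 3.04 (SE 0.49) and the ryanodine receptor Ryr2 changed by -3.18 (SE 0.29).

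Against the P6 cerebellum, which shares its arrays with both comparisons above, parental SMB cells had 15 falls (16%; 11% of all genes) and 4 rises (4.26%; 14.6% of all genes). The count of 19 was 8 without P6 replicate 1 and 8 without replicate 2, and 29 with another variance prior. With centred arrays, which shift all genes by -0.04, 19 fell and 0 rose. Kcnip1 (-3.10, SE 0.28, adjusted p = 0.000548), Cacna2d2 (-2.99, SE 0.20, adjusted p = 0.000139), Kcnk2 (-2.47, SE 0.27), Scn3b (-2.08, SE 0.28), Cacna1g (-1.29, SE 0.15) and Scn1a (-1.21, SE 0.17) fell in all 16 fits that left out an array or a line. Fits without a tumor kept every array of this comparison and changed the estimate of the spread only. With the 3 cerebella as 1 group, Scn3b and Scn1a lost their calls (0.287 and 0.0716). Kcnip1 lay at 5.91 to 7.32 and Cacna2d2 at 5.85 to 6.74 in parental arrays, close to the tumors. For Cacna2d2 the difference between parental cells and tumors was 0.14 (SE 0.18, adjusted p = 0.608) and for Kcnip1 0.02 (SE 0.25, adjusted p = 0.956).

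Cacnb4 (-3.28), Cacng5 (-2.94), Kcna1 (-2.57) and Kcnj8 (-1.91) were called with both P6 arrays (adjusted p = 0.013, 0.00597, 0.00668 and 0.0076) but not with 1 of them. Without P6 replicate 1 their adjusted p was 0.0946, 0.0512, 0.0513 and 0.0588, and without replicate 2 it was 0.0763, 0.0547, 0.0616 and 0.064. Kcnip4 fell by 2.37 and lost its call without replicate 1 (0.0627). Cacna2d3, Kcnq5, Cacna1d and Kcne4 also fell, and Kcns1, Kcnd3, Kcnj14 and Kcnh3 rose by less than 0.50. These 8 also lost their calls without P6 replicate 2, at adjusted p of 0.17, 0.102, 0.158, 0.0709, 0.236, 0.22, 0.239 and 0.0854. Falls were also found in 8 of 11 Purkinje cell, 10 of 12 endothelial and pericyte, 13 of 13 microglial, 7 of 12 astrocyte and Bergmann glia and 7 of 11 young neuron markers. The astrocyte marker Slc1a2 rose. The part of these markers in the channel falls was not tested. Of the 40 other channel, pump and partner genes 13 fell and 1 rose, and the chloride exporter Slc12a5, which lowers chloride in mature neurons, fell by 3.73 (SE 0.98, adjusted p = 0.0325).

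**Figure D4:**
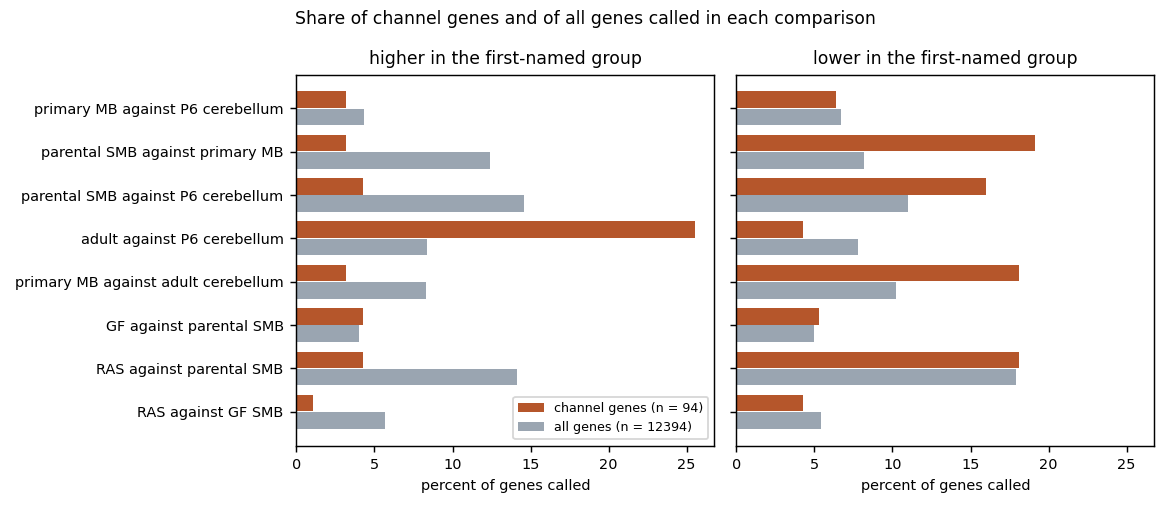
Percent of the 94 channel genes (brown) and of all 12394 genes (grey) called higher (left) or lower (right) in each comparison, by limma's adjusted p or, for the 2 comparisons with the adult array, by the fold rule. The largest gaps are for genes higher in adult than in P6 cerebellum (25.5% against 8.39%) and lower in parental SMB cells than in primary MB (19.1% against 8.19%).

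The 3 parental lines differed from each other in 5 of 94 channel genes by limma's F test (5.32%; 5.08% of all genes). Kcnd2 differed most plainly: it stood at 4.91 to 5.59 in SMB21, near the lowest intensities, at 9.70 and 9.78 in SMB55, and at 5.75 and 8.93 in SMB56 (adjusted p = 0.0109). All 8 SMB21 arrays, GF and RAS included, lay at 4.91 to 5.59. Kcnn2 stood at 8.27 to 9.16 in SMB21, at 7.11 and 6.92 in SMB55 and at 7.13 and 6.33 in SMB56 (adjusted p = 0.0112), so SMB21 was the highest line without overlap. Kcnab2 stood at 6.76 to 6.94 in SMB21, at 7.61 and 7.36 in SMB55 and at 8.18 and 7.54 in SMB56 (adjusted p = 0.0112), but lost its call with the mean of its probe sets (0.11). Cacng2 (adjusted p = 0.0381) and Cacnb4 (0.0482) were highest in SMB55.

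Kcnn2 and Kcnab2 held their calls in all 18 fits that left out an array, and Kcnd2 lost its call without SMB55 parental replicate 1 or 2 (0.0564 and 0.0607). Fits without a GF array, alone in its group, could not change this test, and those without a RAS array changed the spread only. Cacng2 lost its call in 11 of the 18 fits and Cacnb4 in 12, with adjusted p up to 0.215 and 0.193 without SMB55 parental replicate 1 and 2. The count was 11 without SMB56 parental replicate 2, 8 without SMB21 parental replicate 1, 2 without SMB55 parental replicate 1 or 2, and 3 without SMB21 parental replicate 2, 3 or 4, SMB21 RAS replicate 3, SMB55 RAS replicate 1 or 2, or SMB56 RAS replicate 1 or 2. Kcnj10 differed widely within lines: SMB21 parental replicate 1 stood at 11.11 and the others of that line at 6.37 to 6.96, and SMB56 at 6.53 and 10.10.

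In RAS transformed cells Kcnn4 and Kcnk2 rose and Kcne1l, Cacna2d3 and Kcnn2 fell. In the fit of the 18 culture arrays with the line as a term, 17 of 94 channel genes fell (18.1%; 17.9% of all genes) and 4 rose (4.26%; 14.1% of all genes), 32.1% of all genes being called either way, with a median difference of -0.10 against -0.05 over all genes. The share of channel genes that fell was close to that of all genes. Potassium channel genes gave 2 rises and 7 falls of 62, sodium channel genes 3 falls of 9, and calcium channel genes 2 rises and 7 falls of 23. With centred arrays, which shift all genes by -0.08, 26 fell and 2 rose. The count was 13 without line SMB21.

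Kcnn4, the intermediate-conductance calcium-activated potassium channel of dividing lymphocytes and other non-excitable cells, had the largest rise. In parental cells it stood at 7.32, 8.88, 8.19 and 9.37 in SMB21, at 7.49 and 7.29 in SMB55 and at 7.87 and 7.52 in SMB56. With RAS it stood at 12.88, 10.51 and 9.27 in SMB21, at 11.92 and 11.99 in SMB55 and at 12.73 and 10.93 in SMB56. The groups overlapped in SMB21 alone, where the lowest RAS array lay at the level of the highest parental array. The rise was 3.48 (SE 0.67, 11.1-fold, limma adjusted p = 0.00118). As the mean of the line differences, the rise was 3.71 for this probe set and 3.69 for the other one. Within lines the rise of the probe set used was 2.44 (SE 0.76) in SMB21, 4.56 (SE 0.99) in SMB55 and 4.13 (SE 0.99) in SMB56. P6 and adult cerebellum and tumors had levels of 7.15 to 7.96.

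Kcnk2 stood at 5.77 to 8.58 in SMB21, 7.67 and 8.05 in SMB55 and 6.13 and 7.73 in SMB56 parental cells. With RAS it stood at 10.58, 9.35 and 9.92 in SMB21, 10.51 and 10.20 in SMB55 and 10.52 and 11.40 in SMB56, above every parental array of all lines. The rise was 2.85 (SE 0.43, 7.23-fold, adjusted p = 0.000177), and by line 2.40 (SE 0.62), 2.50 (SE 0.81) and 4.03 (SE 0.81). P6 cerebellum stood at 9.95 and 9.89, above every parental array, and 5 of the 7 RAS arrays lay above both P6 arrays. Cacna1g and Cacnb2 rose by 0.37 and 0.22 only. Cacna1g lost its call in 12 of 21 fits that left out an array or a line, with adjusted p from 0.0501 without SMB56 parental replicate 2 to 0.14 without line SMB56, and with centred arrays (0.0721). Cacnb2 lost its call without line SMB21 (0.24).

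Kcne1l had the largest fall. Parental arrays lay at 8.52 to 10.15 with a median of 9.05, and RAS arrays at 5.57 to 7.27, without overlap. The fall was 3.05 (SE 0.32, 8.27-fold lower, adjusted p = 1.19e-05), and by line -2.58 (SE 0.38), -3.58 (SE 0.50) and -3.33 (SE 0.50). Cacna2d3, which was chosen after its values were seen, lay at 6.66 to 8.65 in parental and 5.44 to 6.35 in RAS arrays and fell by 1.77 (SE 0.30, adjusted p = 0.000454). Kcnn2, also chosen so, fell by 1.73 (SE 0.26, adjusted p = 0.000212), and its difference was -2.45 (SE 0.31) in SMB21, -1.41 (SE 0.41) in SMB55 and -0.85 (SE 0.41) in SMB56.

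Further falls were of Cacng2 (-1.59, SE 0.34, adjusted p = 0.00256), Kcnc1 (-0.95, SE 0.19, adjusted p = 0.00161) and Scn1a (-0.38, SE 0.09, adjusted p = 0.00407). Kcnn4, Kcnk2, Kcne1l, Cacna2d3, Kcnn2, Cacng2, Kcnc1 and Scn1a held their calls in all 21 fits that left out an array or a line. Without line SMB21, the calls of Cacna2d1 (-1.64, adjusted p = 0.0028), Scn8a (-1.45, 0.00503), Cacna1a (-0.57, 0.0171), Kcnab2 (-0.45, 0.0197), Kcnj3, Scn2a, Cacna1d, Cacna1s, Cacng7 and Kcnj6 were lost, with adjusted p of 0.103, 0.102, 0.443, 0.138, 0.0795, 0.202, 0.125, 0.06, 0.2 and 0.108. Cacna1a (0.0597), Kcnab2 (0.131), Kcnh7 (0.0605), Kcnj6 (0.0623) and Cacng7 (0.195) lost theirs without line SMB55, and Cacna1d (0.0799), Kcnj6 (0.128) and Cacng7 (0.0518) without SMB56. Kcnj6 also lost its call without SMB55 or SMB56 RAS replicate 1 (0.051 and 0.0518), and Cacng7 without any 1 of 11 arrays (up to 0.102, without SMB21 RAS replicate 1).

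**Figure D5:**
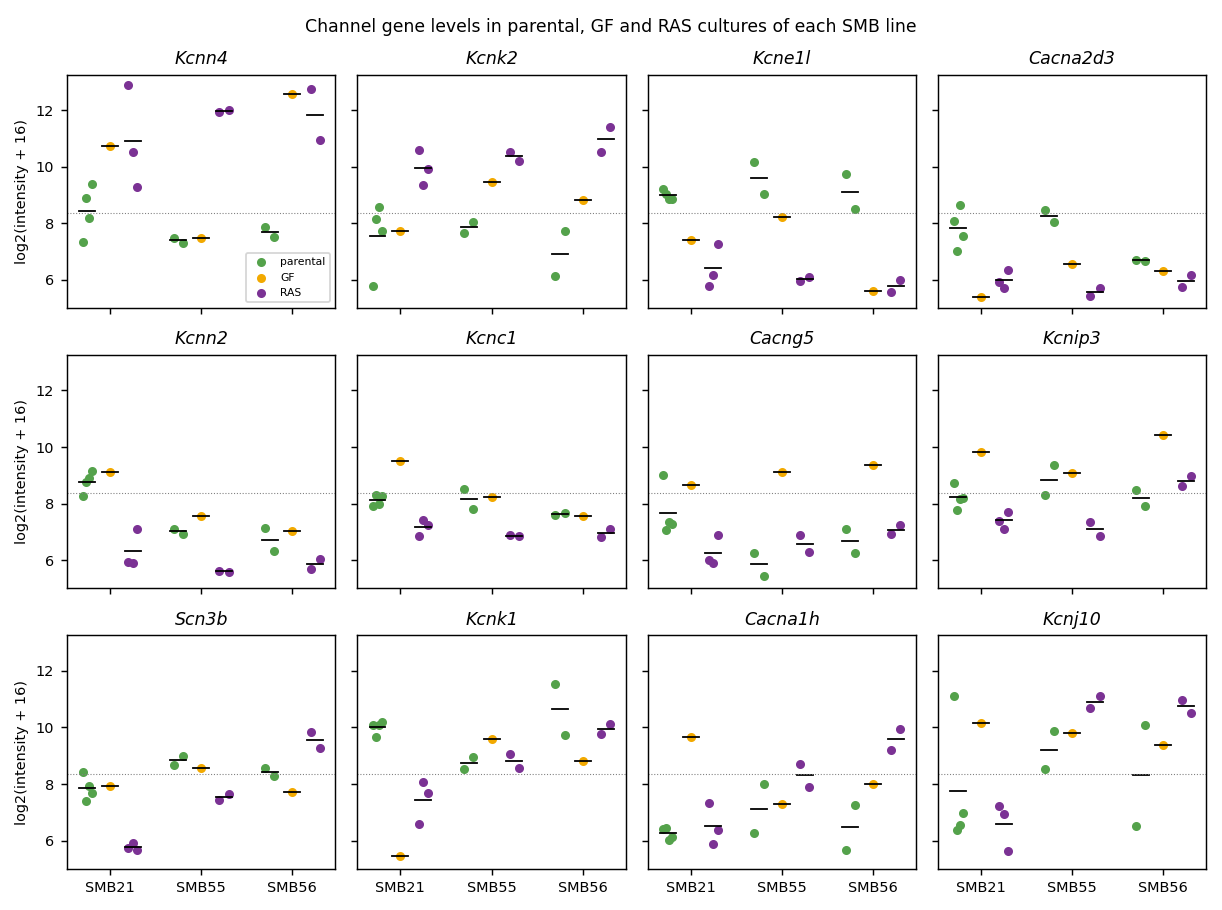
Levels of 12 channel genes in each array (points, log2(intensity + 16)) of parental (green), GF (yellow) and RAS transformed (purple) cells by SMB line; bars are means of a line and treatment, and the dotted line is the median level of all genes, 8.36. Kcnk2 is above, and Kcne1l below, all parental arrays in all 7 RAS arrays, and Scn3b is lower with RAS in SMB21 and SMB55 and higher in SMB56.

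Beside the RAS differences, 9 of 11 granule neuron precursor markers, 7 of 11 young neuron markers, 5 of 10 mature granule neuron markers and 10 of 13 proliferation genes fell. Among the precursor markers Ccnd1 rose. Rises without falls were found in 5 of 12 endothelial and pericyte, 3 of 13 microglial and 1 of 12 astrocyte and Bergmann glia markers. Of 11 Purkinje cell markers 1 rose and 2 fell. Young neuron markers summed to 8363 to 23399 in parental and 918 to 4951 in RAS arrays. Their part in the channel differences was not tested. Of the 40 other channel, pump and partner genes, 9 rose and 9 fell. The cation channel Trpc1 rose by 2.93 (SE 0.26, adjusted p = 2.92e-06), the calcium release channel Itpr3 by 1.87 (SE 0.21) and the calcium-activated chloride channel Ano1 by 1.34 (SE 0.23), while Fgf13, a sodium channel partner, fell by 1.85 (SE 0.33).

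The RAS difference itself varied by line in 2 of 94 channel genes (2.13%; 3.45% of all genes). Scn3b stood at 7.40 to 8.43 in parental and 5.66 to 5.92 in RAS transformed SMB21, at 8.68 and 9.00 against 7.44 and 7.65 in SMB55, and at 8.55 and 8.28 against 9.85 and 9.29 in SMB56. It was thus lower with RAS in SMB21 and SMB55 (-2.08, SE 0.22, and -1.30, SE 0.29) and higher in SMB56 (1.15, SE 0.29), without overlap in any line (limma F test, adjusted p = 0.00378). Kcnj8 had the same pattern (-0.72, SE 0.28, -1.23, SE 0.36, and 1.21, SE 0.36; adjusted p = 0.0428). In SMB56, RAS transformed Kcnj8 levels were 7.55 and 7.67 against 6.63 and 6.16, and in SMB55 at most 6.02 against 7.37 and 7.13. Of 12 endothelial and pericyte markers, 2 (Pdgfrb and Rgs5) were also called by line, and their part in the Kcnj8 difference was not tested.

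Scn3b held its call in all 18 fits that left out an array, with adjusted p from 0.00154 to 0.0153. Those without a GF array, alone in its group, could not change this test. Kcnj8 lost its call in 12 of them, with adjusted p up to 0.149 without SMB56 RAS replicate 2, and with a pseudocount of 64 (0.0518) or centred arrays (0.052). The count was 10 without SMB56 parental replicate 2, 4 without SMB21 parental replicate 1, and 1 without SMB21 parental replicate 2 or 4, SMB21 RAS replicate 2, SMB55 parental replicate 2 or SMB56 RAS replicate 1 or 2. Kcnd2 (-0.90 in SMB55 and 3.22 in SMB56, where parental arrays stood at 5.75 and 8.93) and Cacna1h, a T-type pore (0.26, 1.18 and 3.11), were not called by the F test.

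Kcne1l, the KCNE subunit, was lower in GF cells than in parental cells of all 3 lines, but was not called with the arrays paired. In the additive fit 5 of 94 channel genes fell (5.32%; 4.96% of all genes) and 4 rose (4.26%; 3.99% of all genes), close to the shares of all genes. The GF arrays are all numbered 1. Their differences from the RAS arrays of their line correlated with the deviation of parental array 1, so the replicate numbers were taken to pair them. The replicate block joined all culture arrays of 1 line and number, RAS arrays included, and a block of GF and parental arrays alone was not fitted. With the block, limma called 0 channel genes (15 had an unadjusted p under 0.05) and 1.96% of all genes. All 9 genes kept their direction with the block, at adjusted p of 0.0595 to 0.226. Each of the 9 also lost its call in at least 3 of 21 fits that left out an array or a line, and the count was 1 without line SMB21, line SMB56 or the SMB56 GF array, 2 without the SMB21 GF array and 5 without SMB21 parental replicate 4.

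Kcne1l stood at 7.40, 8.21 and 5.59 in GF cells of SMB21, SMB55 and SMB56, below all parental arrays (8.52 to 10.15), and fell by 2.09 (SE 0.42, adjusted p = 0.00729; 0.0638 with the block). It lost its call without line SMB21 or SMB56 (0.0868 and 0.1) or the SMB56 GF array (0.072). Cacng5 stood at 8.66, 9.11 and 9.35, against 5.46 to 7.37 in all parental arrays but SMB21 replicate 1 at 9.00, and rose by 2.12 (SE 0.51, adjusted p = 0.0189; 0.174 with the block). In SMB21 the GF array lay below parental array 1, its pair. The call was lost without line SMB55 or SMB56 (0.127 and 0.154) or the GF array of either line (0.0798 and 0.0943). The GF levels of Cacng5 lay near those of the tumors. As the mean of the line differences, the probe set used for Cacng5 rose by 2.3 in GF cells. Its other probe set, at most 6.165 in any array, rose by 0.18 by this measure.

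Kcnip3, a Kcnd partner that also binds DNA as a repressor, stood at 9.82, 9.10 and 10.42 in GF cells, against 7.78 to 9.37 in parental cells, overlapping in SMB55 alone, and rose by 1.35 (SE 0.39, adjusted p = 0.0413; 0.216 with the block). Its call was lost in 12 of 21 fits, with adjusted p from 0.0507 without SMB21 RAS replicate 3 to 0.342 without line SMB21. Kcnh2, the ERG potassium channel, fell by 1.11 (SE 0.33, adjusted p = 0.048; 0.226 with the block), and its call was lost in 17 of 21 fits, up to 0.18 without line SMB21. Cacna2d3 stood at 5.38, 6.54 and 6.31 and fell by 1.55 (SE 0.39, adjusted p = 0.0236), with a lost call without line SMB21 or SMB55 (0.286 and 0.0748) or the SMB21 GF array (0.191). The other 4 genes, Cacna1s, Kcnj6, Cacnb2 and Kcnq5, moved by 0.40 or less. They also lost their calls without line SMB21, at adjusted p of 0.311, 0.273, 0.384 and 0.121.

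Kcnn4 was not called in GF cells (2.29, SE 0.88, adjusted p = 0.123), and its GF levels were 10.74 in SMB21, 7.47 in SMB55 and 12.58 in SMB56. SMB56 thus lay at the RAS level and SMB55 at the parental level. In a test of the GF difference by line, which was added after the values were seen, 2 of 94 channel genes were called (2.13%; 1.4% of all genes). Kcnk1 stood at 5.47 in SMB21 GF cells against 9.67 to 10.19 in parental cells, at 9.60 against 8.55 and 8.95 in SMB55, and at 8.81 against 11.53 and 9.74 in SMB56 (adjusted p = 0.0356). The leak channel Kcnk5 stood at 7.95 in SMB21 GF cells and at 6.18 to 6.44 in all parental arrays and the other GF cells (adjusted p = 0.00936). Both rest on 1 GF array per line, with the spread taken from the parental and RAS replicates and no pairing in the fit, so they describe these arrays and show no spread of GF cells. In GF cells 5 of 11 granule neuron precursor, 3 of 11 young neuron and 3 of 10 mature granule neuron markers fell and 0 rose. Of 11 Purkinje cell markers 1 rose and 2 fell, and of 12 astrocyte and Bergmann glia markers 1 rose and 0 fell. The part of these markers in the channel differences was not tested. Of the 40 other channel, pump and partner genes 1 rose and 2 fell.

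RAS transformed and GF cells, which were fitted together and share the parental arrays in the estimate of the spread, differed in 5 channel genes: 4 were lower with RAS (4.26%; 5.45% of all genes) and 1 was higher (1.06%; 5.7% of all genes). Kcnn2 lay at 5.60 to 7.11 in RAS and at 9.14, 7.57 and 7.05 in GF cells, without overlap within a line (-2.06, SE 0.35, adjusted p = 0.00352; 0.0426 with the replicate block), and lost its call without line SMB55 (0.0578). Cacng5 lay at 5.90 to 7.23 in RAS and at 8.66 to 9.35 in GF cells, without overlap (-2.48, SE 0.52, adjusted p = 0.00927), and lost its call without line SMB55 (0.0754), the SMB55 GF array (0.0641) or with the block (0.108). Kcnip3 (-2.03, SE 0.39) and Kcnc1 (-1.45, SE 0.25) lost theirs without line SMB21 (0.105 and 0.0529) and with the block (0.0739 and 0.0568).

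Kcnma1, the pore of large-conductance channels, was higher with RAS than with GF (0.93, SE 0.28, adjusted p = 0.0439; 0.181 with the block). It stood at 8.66 and 8.82 in RAS transformed SMB55 and 9.04 and 8.07 in SMB56, but at 7.05 to 7.47 in SMB21, against 6.95, 7.02 and 7.56 in GF cells. Its call was lost in 12 of 21 fits, from 0.0502 without SMB55 parental replicate 2 to 0.318 without line SMB55. The count of 5 was 2 without line SMB55, 3 without the SMB55 GF array and 1 with the replicate block. Kcnk2 was 1.72 higher with RAS than with GF (SE 0.57), and Kcnn4 1.19 higher (SE 0.89), and neither was called (adjusted p = 0.0617 and 0.4), though Kcnk2 was called with a pseudocount of 64 (0.0415).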

How the data were processed

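RNA of 24 samples was hybridised to 1 Affymetrix array each, after Trizol extraction and biotin labelling per the labels' protocols. The deposited table holds linear intensity values per probe set, 10.0 to 37842, with array medians of 188.8 to 245.1. The authors' normalization of the intensities was not given in the sources used here. Of 22690 probe sets, 20393 have 1 symbol in the platform annotation, 691 several and 1606 none, and 64 are control probe sets. Those with 1 symbol gave 12394 genes, of which 4958 had several probe sets.

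Levels are log2(intensity + 16) and were tested with limma 3.58.1 in R 4.3.3, with Benjamini-Hochberg adjustment over all genes and a threshold of 0.05. Tissues and line means formed 1 fit, and the 18 culture arrays another with line and treatment as terms. F tests by line used 1 mean per line and treatment. The fits were tested on simulated data. Comparisons with the single adult array have no test. The number of arrays limits the precision.

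Genes were named where they had the largest called differences (up to 8 each way) among those reaching the median level, or the 6 smallest p by line, beside 26 genes always named; other genes named here were chosen after their values were seen. The members, gene lists and tests were chosen with earlier results of these data known. Alternatives changed the pseudocount (64), centring, probe set rule, low filter (mean under 6), variance prior, cerebellar group, handling of lines, replicate block and arrays.

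GF array 1 deviated with parental array 1 of its line (correlations 0.218, 0.189 and 0.27 over genes in SMB21, SMB55 and SMB56), so the shared numbers in the labels were taken as pairs there.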

Additional observations from a re-analysis of the deposited data

Results flagged for a closer look

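Of 37 channel genes tested for an array far from the others of its group, 4 had one in parental SMB21, the only group of 4 to 10 arrays; chance gives such an array in about 1 of 20 groups. Replicate 1 stood at 11.11 in Kcnj10 (the others at 6.37 to 6.96) and at 9.00 in Cacng5 (7.09 to 7.37). Replicate 2 stood at 7.79 in Cacna1a (7.23 to 7.27) and at 7.47 in Kcnma1 (7.07 to 7.10).

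The RAS difference varied by line in Scn3b (limma F test, adjusted p = 0.00378) and Kcnj8 (adjusted p = 0.0428). Both were lower with RAS in SMB21 and SMB55 and higher in SMB56. The GF difference varied by line in Kcnk5 (adjusted p = 0.00936), higher in SMB21 GF cells alone, and in Kcnk1 (adjusted p = 0.0356), lower in SMB21 and SMB56 GF cells. The GF tests rest on 1 GF array per line, take the spread from parental and RAS replicates, leave out the pairing and were added after the values were seen.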

How the results depend on the processing

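Counts of called channel genes over the fits that each left out an array or a line were 4 to 12 for primary MB against P6 cerebellum, 12 to 23 for parental SMB against primary MB, 8 to 25 for parental SMB against P6, 28 to 30 for adult against P6 and 20 to 25 for primary MB against the adult. They were 1 to 11 for GF, 13 to 27 for RAS, 2 to 7 for RAS against GF, 1 to 10 for the RAS difference by line and 2 to 11 for parental lines. In the 2 comparisons with the adult, the rule needs a gap to every array, so leaving out an array could only keep or add calls. The adult array was never left out. Calls over all genes in these fits are not given beside the counts, so their changes are not shown to be particular to channel genes. With another variance prior (trend and robust) parental SMB against P6 gave 29. A pseudocount of 64, and centred arrays, each left 1 gene whose RAS difference varied by line. With the replicate block, limma called 0 channel genes for GF (15 at an unadjusted p under 0.05), 1 for RAS against GF and 17 for RAS. RAS and parental arrays of 1 number did not deviate together (correlations -0.154 to -0.0201), so those numbers were not taken as pairs in the main fits. The replicate block nevertheless joined RAS arrays to the other culture arrays of their line and number. Over all genes, the block gave 243 calls for GF in place of 1109 and 161 for RAS against GF in place of 1383, lines as a random block gave 896 for primary MB against P6 in place of 1361, and the 3 cerebella as 1 group gave 1373 for parental SMB against primary MB in place of 2553. The cause of these changes was not tested. Of all settings of named genes, 4453 kept a call in its direction or stayed uncalled, 163 lost a call and 92 gained one. In 0 settings did a called gene change direction or an uncalled gene become called the opposite way. The direction of genes that stayed uncalled was not compared. The probe sets that represent 57 of 94 channel genes (60.6%, against 32.9% of all genes) never reached the median level. This describes their brightness and limits what can be seen.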
